A study of Homo sapiens with 25 samples.

Results

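The genes described here are 10 immediate early genes in the human T-leukaemia line Jurkat: the zinc-finger factors EGR1, EGR2 and EGR3, the AP-1 subunits FOS, FOSB, JUN, JUNB and JUND, and IER2 and IER5L. They were listed by name and kept where the normalized count was at least 10 in at least 2 libraries. All 10 passed that filter, among 22994 genes that passed it of 36755 in the table. RNA was sequenced from cells kept in medium with 0%, 12.5%, 25%, 50% or 100% histidine, an amino acid that human cells cannot make, and collected on day 3 or day 6. Day 3 has 3 libraries per level at 0%, 12.5%, 25% and 50%, and 2 at 100% (replicates 1 and 3). Day 6 has 2 libraries at 12.5%, 3 per level at 25%, 50% and 100%, and none at 0%. All 25 libraries come from the same line and differ in the labels only by histidine level, day and replicate. The labels do not say whether replicates were separate cultures, so the spread behind each p-value may be technical.

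Immediate early genes are transcribed within minutes of a signal and without new protein synthesis. In T cells the antigen receptor drives them through RAS, ERK and calcium, and the proteins SRF and CREB bind their promoters. EGR1, EGR2 and EGR3 bind GC-rich sites, and EGR2 and EGR3 are known in T cells for restraining activation. FOS and FOSB cannot bind DNA alone and pair with a JUN protein to form AP-1. JUN is the strongest activator of the JUN proteins, JUNB and JUND are weaker or antagonistic in many settings, and JUND is present in resting cells. IER2 is a small nuclear protein induced with them, and IER5L is a paralogue of the stress-induced gene IER5.

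The deposited values are counts normalized by the authors, and the depth of each library is not known from them. Library totals lay between 18.44 and 21.38 mega-counts (normalized). T-lineage markers were all detected, with summed levels of 51444 to 97320 normalized counts per library. Markers of other cells also varied: the 8 fibroblast markers summed to 2623 to 13556 and the 5 erythroid markers to 191 to 5042. The library of 25% histidine on day 6, replicate 2, held 37890 normalized counts of muscle markers. The fibroblast and erythroid sums had correlations between -0.48 and 0.37 with the members' deviations from their group means (25 libraries, no test). With the log2 sum of the 23 other-cell markers in the table as a covariate, 3 of the members' differences no longer passed, all of EGR1, and 1 newly passed, the difference between days of EGR1 at 25% (adjusted p = 0.046).

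The promoters of EGR1, EGR2, JUN, JUND, FOS and FOSB are shown, and the letters show which of these stretches share a motif. Whether a motif goes with a response to histidine was not tested, and sites outside the windows were not searched. RefSeq (GRCh38.p14) gives windows of 250 bases before to 50 after a start site for 9 of the 10 members, 11 windows in all. The stretches shown lie at chr5:138465229-138465478 (EGR1, plus strand), chr10:62816412-62816441 (EGR2, minus), chr1:58784089-58784118 (JUN, minus), chr19:18281623-18281872 (JUND, minus), chr14:75278708-75278773 (FOS, plus) and chr19:45467876-45467994 (FOSB, plus). All lie before a RefSeq start site, and those of EGR2 and JUN, which lie inside the gene as GENCODE 29 draws it, are cut to 30 bases. That of FOS ends where its GENCODE 29 gene begins, which leaves out its TATAAA, 33 bases before the RefSeq start site. Capitals mark the motifs found on either strand within each stretch.
EGR1: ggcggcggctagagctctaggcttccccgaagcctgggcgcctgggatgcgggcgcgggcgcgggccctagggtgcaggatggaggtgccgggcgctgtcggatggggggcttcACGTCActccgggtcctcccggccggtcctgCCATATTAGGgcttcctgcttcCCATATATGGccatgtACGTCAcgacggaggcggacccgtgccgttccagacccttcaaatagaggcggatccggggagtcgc
EGR2: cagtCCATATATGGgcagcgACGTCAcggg
JUN: ggggTGACATCAtgggctatttttaggggt
JUND: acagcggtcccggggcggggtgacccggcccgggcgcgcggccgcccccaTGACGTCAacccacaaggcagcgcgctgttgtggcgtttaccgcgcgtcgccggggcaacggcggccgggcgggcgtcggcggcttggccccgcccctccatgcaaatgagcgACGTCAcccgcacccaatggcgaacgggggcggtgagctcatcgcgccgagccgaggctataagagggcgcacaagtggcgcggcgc
FOS: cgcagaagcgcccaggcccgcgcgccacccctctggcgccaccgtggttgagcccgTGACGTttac
FOSB: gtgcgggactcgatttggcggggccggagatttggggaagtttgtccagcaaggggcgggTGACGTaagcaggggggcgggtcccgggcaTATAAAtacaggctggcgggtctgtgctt

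The motifs searched were the CArG box, which SRF binds, the cAMP response element TGACGTCA, its variant TGACATCA, its shorter core TGACGT, the AP-1 site TGACTCA or TGAGTCA, and TATAAA. The core was added after the sequences had been seen, and each full TGACGTCA also counts as 2 cores, 1 on each strand. CArG boxes were in the windows of EGR1 (105 and 83 bases before the start site) and EGR2 (71 bases before), against 1.29% of all 35116 windows. The core was in windows of 5 of the 9 members, EGR1, EGR2, FOS, FOSB and JUND, against 7.98% of all windows. These shares count windows, of which the members have 11. EGR2 has windows at start sites 1, 2 and 3, and only that of site 3 held a searched motif. The full TGACGTCA was found in JUND only, 200 bases before its start (1.85% of all windows), and TGACATCA in JUN only, 67 bases before (2.61%). TATAAA was in FOS, FOSB and JUNB (11.5% of all windows), and no member held TGACTCA or TGAGTCA (4.95%). IER2 and IER5L held none of these letters.

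**Figure D1:**
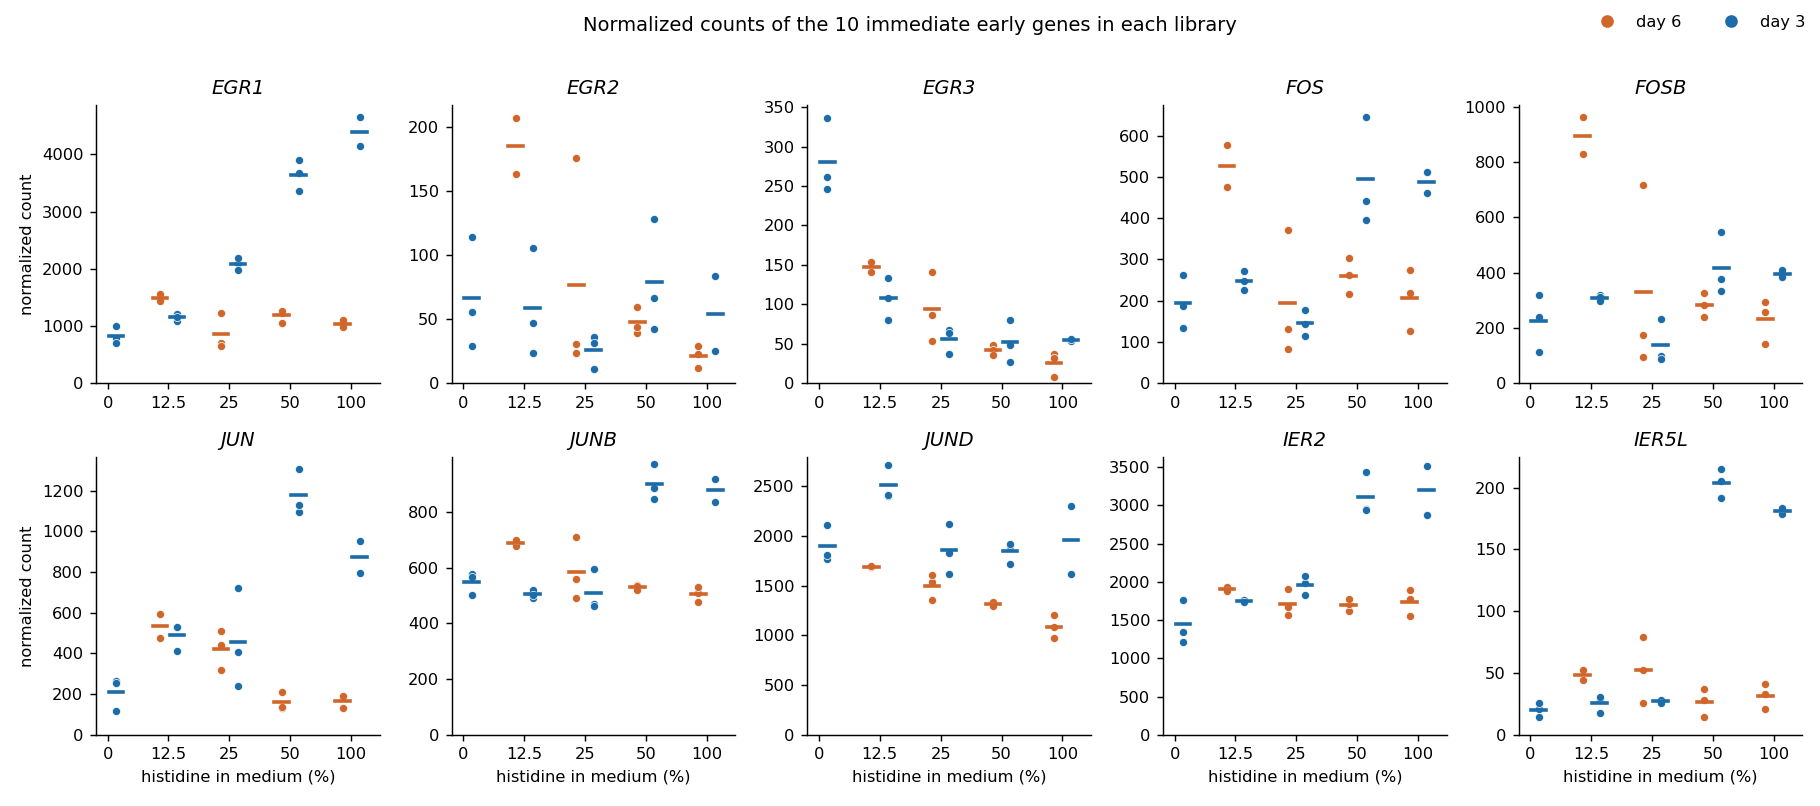
Normalized counts (y axes, linear, from 0) of the 10 genes in each of the 25 libraries against histidine in the medium (x axes, in %), with day 6 in orange left of day 3 in blue. Points are libraries and bars are group means; on day 3 EGR1 averaged 825, 1153, 2087, 3645 and 4399 at 0%, 12.5%, 25%, 50% and 100%, while on day 6 it lay between 651 and 1552 in every library.

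On day 3, EGR1, JUNB, IER2 and IER5L were lower than at 100% at each of the 3 levels up to 25%, and EGR3 was higher without histidine. At 0% against 100%, limma's test across all genes called 6 of the 10 lower (EGR1, FOS, JUN, JUNB, IER2 and IER5L) and 1 higher (EGR3), where 16.1% of all tested genes were called lower and 14.8% higher. At 12.5% against 100%, 4 were lower (EGR1, JUNB, IER2 and IER5L) and JUND was higher, against 12% and 14.2% of all genes. At 25% against 100%, 5 were lower (EGR1, FOS, JUNB, IER2 and IER5L) and 0 higher, against 9.72% and 9.81%. The median log2 difference of the 10 was -1.05, -0.82 and -1.01 at 0%, 12.5% and 25%, beside medians of -0.02, -0.04 and 0.00 over all genes. These comparisons share the same 2 libraries at 100%. In these bulk samples, fewer cells expressing a gene and less RNA per cell cannot be told apart.

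EGR1 (chromosome 5, 138465490 to 138469315 in GENCODE 29) was lower at each step of histidine on day 3. It had 994, 782 and 699 normalized counts at 0%, 1088, 1208 and 1162 at 12.5%, 2093, 1978 and 2191 at 25%, 3358, 3907 and 3671 at 50%, and 4138 and 4659 at 100%. No 2 neighbouring levels overlapped. At 0% the mean was 5.33-fold lower, 825 ± 152 (SD, n = 3) against 4399 ± 369 at 100% (n = 2; log2 -2.43, SE 0.18, limma adjusted p = 1.36e-09). Between neighbours, limma called EGR1 lower at 0% than at 12.5% (log2 -0.50, SE 0.16, adjusted p = 0.0343), lower at 12.5% than at 25% (log2 -0.86, SE 0.16, adjusted p = 0.0021) and lower at 25% than at 50% (log2 -0.80, SE 0.16, adjusted p = 0.000869). The step between 50% and 100% did not pass (log2 -0.27, 95% interval -0.65 to 0.11, adjusted p = 1.00), although all 3 libraries at 50% lay below both at 100%. The 0% against 12.5% call had adjusted p = 0.559 with library position in the model, 0.0734 with other-cell markers, and between 0.0527 and 0.155 in 5 of the 6 fits that left out 1 library.

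EGR3 (chromosome 8, 22687659 to 22693302), the factor known for restraining T-cell activation, ran the other way on day 3. It had 261, 336 and 246 normalized counts at 0%, 80.6, 108 and 133 at 12.5%, 67.4, 64.1 and 37.0 at 25%, 48.2, 80.2 and 27.1 at 50%, and 53.0 and 55.9 at 100%. The 0% libraries lay above all others of day 3, and the 25%, 50% and 100% libraries overlapped. At 0% it averaged 281 ± 48.1 (n = 3) against 54.4 ± 2.05 at 100% (n = 2), 5.16-fold higher (log2 2.33, SE 0.50, adjusted p = 0.000856). Against 12.5%, with 108 ± 26.4, it was also higher (log2 1.39, SE 0.45, adjusted p = 0.0295), a call that did not pass with library position in the model (adjusted p = 0.0943) or in 5 of the 6 fits that left out 1 library.

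EGR2 (chromosome 10, 62811996 to 62919900) varied widely between replicates on day 3. It had 114, 28.8 and 55.9 normalized counts at 0%, and 25.2 and 83.4 at 100%. The groups overlapped, and the log2 difference of 0.30 had a 95% interval of -1.40 to 2.01 (adjusted p = 0.837). Its standard deviation within groups was 0.94 on the log2 scale, the widest of the 10 genes.

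FOS and FOSB, the partners that need a JUN protein, had their lowest day 3 means at 25% and not at 0%. FOS (chromosome 14, 75278774 to 75282230) had 263, 186 and 133 normalized counts at 0%, 249, 225 and 273 at 12.5%, 113, 144 and 178 at 25%, 396, 646 and 442 at 50%, and 462 and 512 at 100%. All libraries at 25% or less lay below all at 50% and 100%. At 25% FOS averaged 145 ± 32.3 (n = 3) against 487 ± 35.5 at 100% (n = 2), 3.35-fold lower (log2 -1.76, SE 0.45, adjusted p = 0.0082). That call did not pass with library position in the model (log2 -1.26, adjusted p = 0.139), and leaving out replicate 3 of 100% gave 0.0708. At 12.5% against 25% FOS was not called (log2 0.79, SE 0.40, adjusted p = 0.274), although the libraries did not overlap.

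The FOS difference at 0% was 194 ± 65.2 (n = 3) against 487 ± 35.5 at 100% (n = 2; log2 -1.38, SE 0.45, adjusted p = 0.0247). It did not pass with library position in the model (log2 -0.76, adjusted p = 0.347) or after quantile normalization (adjusted p = 0.0641). FOSB (chromosome 19, 45467995 to 45475179) had 97.2, 88.7 and 233 normalized counts at 25%, against 332, 547 and 376 at 50%. These groups did not overlap, and FOSB was called lower (log2 -1.69, SE 0.56, adjusted p = 0.0379), but 5 of the 6 fits that left out 1 library gave adjusted p between 0.0561 and 0.14. Against 383 and 408 at 100%, the FOSB difference at 25% was log2 -1.64 (adjusted p = 0.0836).

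JUN (chromosome 1, 58780788 to 58784327) was lowest without histidine on day 3. It had 265, 116 and 257 normalized counts at 0%, 532, 411 and 531 at 12.5%, 239, 407 and 724 at 25%, 1095, 1308 and 1130 at 50%, and 795 and 954 at 100%. The 0% libraries lay below all at 12.5%, 50% and 100% but overlapped those at 25%. JUN averaged 213 ± 83.3 at 0% (n = 3) against 875 ± 112 at 100% (n = 2), 4.11-fold lower (log2 -2.12, SE 0.38, adjusted p = 0.000241). All 3 libraries at 50% lay above both at 100%, a difference that was not called (log2 0.43, 95% interval -0.37 to 1.24).

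JUNB (chromosome 19, 12791496 to 12793315) fell to a plateau: 576, 566 and 502 normalized counts at 0%, 521, 490 and 500 at 12.5%, 471, 461 and 595 at 25%, 887, 972 and 845 at 50%, and 837 and 920 at 100%. The 3 lowest levels overlapped each other and lay below the 2 highest. At 0% JUNB averaged 548 ± 39.9 (n = 3) against 879 ± 58.3 at 100% (n = 2), 1.60-fold lower (log2 -0.68, SE 0.13, adjusted p = 0.000113). With library position in the model the adjusted p was 0.0526.

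JUND (chromosome 19, 18279760 to 18281622), the JUN protein of resting cells, was not called lower than at 100% at any level on day 3. It had 2112, 1765 and 1810 normalized counts at 0%, 2405, 2408 and 2708 at 12.5%, 1831, 1617 and 2115 at 25%, 1896, 1914 and 1721 at 50%, and 1611 and 2295 at 100%. The 12.5% libraries lay above all the others. JUND was called higher there than at 100%, 2507 ± 174 (n = 3) against 1953 ± 483 (n = 2; difference of log2 0.38, SE 0.12, adjusted p = 0.0231), a call that rested on replicate 1 of 100% (log2 0.13, adjusted p = 0.602 without it). It also did not pass without replicate 3 of 12.5% (adjusted p = 0.0903), after quantile normalization (0.0972) or when only the groups compared were fitted (0.0862). At 0% against 100% the difference was log2 -0.03 (95% interval -0.28 to 0.23).

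IER2 (chromosome 19, 13150415 to 13154908) had 1767, 1346 and 1216 normalized counts at 0%, 1734, 1760 and 1741 at 12.5%, 1989, 1826 and 2075 at 25%, 2954, 3441 and 2944 at 50%, and 2880 and 3522 at 100%. It split between 25% and 50% with no overlap. At 0% it averaged 1443 ± 288 (n = 3) against 3201 ± 454 at 100% (n = 2), 2.22-fold lower (log2 -1.16, SE 0.12, adjusted p = 2.71e-08).

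IER5L (chromosome 9, 129175552 to 129178262) had the largest fall of the 10 in this comparison, and nearly all of it lay between 50% and 25%. It had 20.6, 25.5 and 14.8 normalized counts at 0%, 28.4, 17.4 and 30.9 at 12.5%, 27.4, 28.3 and 26.1 at 25%, 192, 215 and 205 at 50%, and 179 and 183 at 100%. The levels formed a low and a high set with no library between. At 0% it averaged 20.3 ± 5.35 (n = 3) against 181 ± 3.21 at 100% (n = 2), 8.92-fold lower (log2 -3.13, SE 0.40, adjusted p = 7.05e-07). At 25% against 50% the difference was already log2 -2.86 (SE 0.36, adjusted p = 8.64e-07).

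Between neighbouring levels on day 3, the step from 50% to 25% carried the most calls. At 25% against 50%, 7 of the 10 were called lower (EGR1, FOS, FOSB, JUN, JUNB, IER2 and IER5L) and 0 higher, against 12.5% and 11.4% of all genes. At 12.5% against 25%, EGR1 was lower and JUND higher, against 2.81% and 5.41% of all genes. At 0% against 12.5%, EGR1, JUN and JUND were lower and EGR3 higher, against 12.5% and 8.5%. At 50% against 100%, limma called 0 members and 0 of all genes (0% in each direction), with 0 members and 1075 genes at an unadjusted p under 0.05. Erythroid markers summed to 3530 to 5042 at 50% and 281 to 528 at 100% on day 3, and with the other-cell markers in the model 0 genes were called as well.

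On day 6, 8 of the 10 were called higher at 12.5% than at 100%, all but IER2 and IER5L, and 0 lower, against 10.8% and 11.1% of all genes. At 25% against 100%, EGR3, JUN and JUND were called higher and 0 lower, against 11% and 9.24%. At 50% against 100%, 0 members were called (0% of all genes higher, 0.00435% lower), and 2 members and 1098 genes had an unadjusted p under 0.05. The median log2 difference of the 10 was 1.04 at 12.5%, 0.33 at 25% and 0.24 at 50%, beside 0.00, -0.02 and 0.01 over all genes. These comparisons share the same 3 libraries at 100%. The count at 12.5% rests on 2 libraries: it was 2 without replicate 1 of 12.5%, 4 without replicate 2 and 5 without replicate 1 of 100%.

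**Figure D2:**
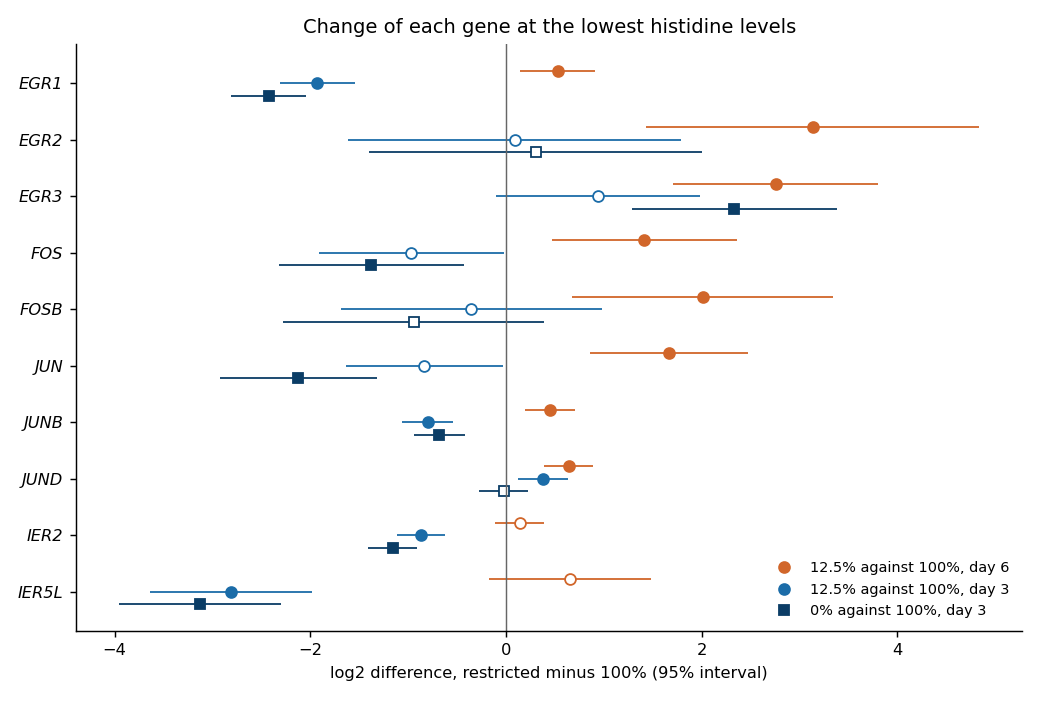
Log2 difference from 100% histidine (x axis, with 95% intervals) for each of the 10 genes, at 12.5% on day 6 (orange circles), 12.5% on day 3 (blue circles) and 0% on day 3 (dark squares); filled symbols passed limma's test at an adjusted p under 0.05. On day 6 all 10 points lie right of 0. On day 3 EGR1, FOS, FOSB, JUN, JUNB, IER2 and IER5L lie left of it at both levels, and of these EGR1, JUNB, IER2 and IER5L passed at both.

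EGR2 and EGR3 differed most on day 6. EGR2, the member with the widest spread within groups (0.94 on the log2 scale), had 207 and 164 normalized counts at 12.5%, against 29.4, 11.9 and 22.7 at 100%. It had 23.9, 30.4 and 176 at 25%, and 59.6, 39.1 and 44.1 at 50%. Both libraries at 12.5% lay far above all 3 at 100%, with means of 186 ± 30.9 (n = 2) and 21.3 ± 8.80 (n = 3), 8.70-fold higher (log2 3.14, SE 0.81, adjusted p = 0.00776). EGR3 had 140 and 153 normalized counts at 12.5%, 53.9, 85.9 and 141 at 25%, 48.2, 41.8 and 35.7 at 50%, and 7.34, 37.1 and 31.8 at 100%. At 12.5% it was 5.78-fold higher than at 100%, 147 ± 9.19 (n = 2) against 25.4 ± 15.9 (n = 3; difference of log2 2.76, SE 0.50, adjusted p = 0.000257), and at 25% 3.69-fold higher (log2 2.01, SE 0.45, adjusted p = 0.00216). The call at 25% did not pass when only the groups compared were fitted (adjusted p = 0.0565). EGR3 was not called at 12.5% against 25% (log2 0.75, 95% interval -0.30 to 1.80).

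EGR1 changed less on day 6 and did not follow the histidine level in order. It had 1436 and 1552 normalized counts at 12.5%, 712, 651 and 1223 at 25%, 1234, 1271 and 1052 at 50%, and 1029, 978 and 1104 at 100%. The 12.5% libraries lay above all the others, and 2 of the 3 at 25% lay below all the others. At 12.5% it was higher than at 100%, 1494 ± 82.3 (n = 2) against 1037 ± 63.0 (n = 3; difference of log2 0.53, SE 0.18, adjusted p = 0.0436). That call did not pass without the filter on low values (adjusted p = 0.0742), after total-sum scaling (0.0765), after quantile normalization (0.0661) or in any of the 5 fits that left out 1 library (0.0586 to 0.235).

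FOS and FOSB reached their highest day 6 levels at 12.5%. FOS had 477 and 578 normalized counts at 12.5%, 133, 83.5 and 370 at 25%, 263, 217 and 303 at 50%, and 126, 218 and 274 at 100%. FOSB had 828 and 962 at 12.5%, 175, 95 and 716 at 25%, 328, 240 and 284 at 50%, and 141, 258 and 294 at 100%. For both genes the 12.5% libraries lay above all others of day 6, and replicate 3 at 25% stood far above the other 2 of its group. FOS averaged 527 ± 71.7 at 12.5% (n = 2) against 206 ± 74.5 at 100% (n = 3), 2.56-fold higher (log2 1.42, SE 0.45, adjusted p = 0.029). FOSB averaged 895 ± 95 against 231 ± 79.7, 3.87-fold higher (log2 2.01, SE 0.63, adjusted p = 0.0291). Neither call passed without replicate 1 or 2 of 12.5% or without replicate 1 of 100%, with adjusted p between 0.089 and 0.183.

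JUN was higher at 25% than at 50% on day 6, and lower at 25% than at 50% on day 3. It had 593 and 474 normalized counts at 12.5%, 318, 440 and 511 at 25%, 213, 134 and 138 at 50%, and 183, 188 and 133 at 100%. The 2 lowest levels lay above the 2 highest with no overlap. At 25% against 50% it averaged 423 ± 97.9 and 162 ± 44.5 (n = 3 each; log2 1.39, SE 0.34, adjusted p = 0.00627), and at 12.5% against 100% 533 ± 84.2 (n = 2) and 168 ± 30.5 (n = 3), 3.17-fold higher (log2 1.67, SE 0.38, adjusted p = 0.00344). Without replicate 1 of 12.5% the adjusted p of JUN against 100% was 0.0501, and that of EGR2 was 0.0696.

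JUNB had 679 and 700 normalized counts at 12.5%, 559, 490 and 708 at 25%, 539, 535 and 520 at 50%, and 475, 509 and 531 at 100%. It was 1.37-fold higher at 12.5% than at 100%, 690 ± 14.7 (n = 2) against 505 ± 28.2 (n = 3; difference of log2 0.45, SE 0.13, adjusted p = 0.01). That call was lost without either library of 12.5% (adjusted p 0.0542 and 0.0897). JUND had 1682 and 1693 at 12.5%, 1541, 1606 and 1355 at 25%, 1321, 1337 and 1291 at 50%, and 973, 1081 and 1207 at 100%. No 2 neighbouring levels of JUND overlapped, with lower histidine higher, but no step between neighbours was called (adjusted p = 0.681 at 12.5% against 25%, 0.27 at 25% against 50% and 0.93 at 50% against 100%). At 12.5% it was 1.55-fold higher than at 100%, 1687 ± 8.22 against 1087 ± 117 (log2 0.64, SE 0.12, adjusted p = 0.000351), and this call passed in each fit that left out 1 library.

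IER2 and IER5L, both lower on day 3, were not called in any comparison of histidine levels on day 6. IER2 had 1939 and 1885 normalized counts at 12.5% and 1552, 1893 and 1782 at 100%, overlapping groups with a log2 difference of 0.14 (95% interval -0.11 to 0.39). IER5L had 44.6 and 52.7 at 12.5% and 32.8, 40.7 and 21.0 at 100%, with no overlap and a log2 difference of 0.65 (95% interval -0.17 to 1.48, adjusted p = 0.291).

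Between neighbouring levels on day 6, the calls were in JUN and EGR1. At 25% against 50%, JUN was higher and EGR1 lower, 862 ± 314 and 1185 ± 117 (n = 3 each; log2 -0.51, SE 0.16, adjusted p = 0.0289), with overlapping libraries, against 10.6% and 10.3% of all genes. The EGR1 call did not pass with a term for other-cell markers (adjusted p = 0.397), when only these 2 groups were fitted (0.223) or with library position (0.468). At 12.5% against 25% only EGR1 was called, higher by log2 0.85 (SE 0.18, adjusted p = 0.0247, and 0.152 with other-cell markers), against 0.204% of all genes higher and 0.67% lower. With replicate 3 of 25% left out, FOS (log2 2.31, adjusted p = 0.00047) and FOSB (log2 2.78, adjusted p = 0.00626) were called in that comparison as well, 3 in all. Without that library 6 members were called at 25% against 100% and 4 at 25% against 50%. Without replicate 2 of 25%, the library with muscle markers, these 3 counts were 0, 3 and 1.

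At 100% histidine, most members were lower on day 6 than on day 3. Limma called 6 lower (EGR1, JUN, JUNB, JUND, IER2 and IER5L) and 0 higher, against 5.73% and 2.93% of all genes. The largest difference was in IER5L, with 32.8, 40.7 and 21.0 normalized counts on day 6 against 179 and 183 on day 3 (log2 -2.53, SE 0.40, adjusted p = 0.000135). JUN averaged 168 ± 30.5 on day 6 (n = 3) and 875 ± 112 on day 3 (n = 2; log2 -2.38, SE 0.38, adjusted p = 0.000506), and EGR1 1037 ± 63.0 and 4399 ± 369 (log2 -2.08, SE 0.18, adjusted p = 1.63e-07). EGR1 at 100% on day 6 lay within the span of its libraries at 0% and 12.5% on day 3, at 699 to 1208 normalized counts. Differences from 100% on the 2 days are thus set against different levels of these genes.

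The effect of histidine differed between the days. For 12.5% against 100%, limma's test of the difference called 6 members (EGR1, FOS, JUN, JUNB, IER2 and IER5L). All 6 had the higher signed log2 effect on day 6 and 0 went the other way, against 1.28% and 2.36% of all genes. For 25% it called 4 (JUN, JUNB, IER2 and IER5L) and 0 the other way, against 2.71% and 2.01%. For 50% it called 0 members, against 0.00435% and 0% of all genes, with 1 member and 906 genes at an unadjusted p under 0.05. The difference in IER5L at 12.5% was log2 3.47 (SE 0.57, adjusted p = 0.00052), with an effect of 0.65 on day 6 and -2.82 on day 3. EGR1 differed by 2.46 (SE 0.26, adjusted p = 6.16e-06), with 0.53 on day 6 and -1.93 on day 3. JUN differed by 2.50 (SE 0.54, adjusted p = 0.0132), with 1.67 and -0.83, and JUND by 0.26 (95% interval -0.10 to 0.62), with 0.64 and 0.38. These differences use the same 100% libraries as the comparisons within each day and as the comparison of day 6 with day 3, so they are not separate evidence.

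**Figure D3:**
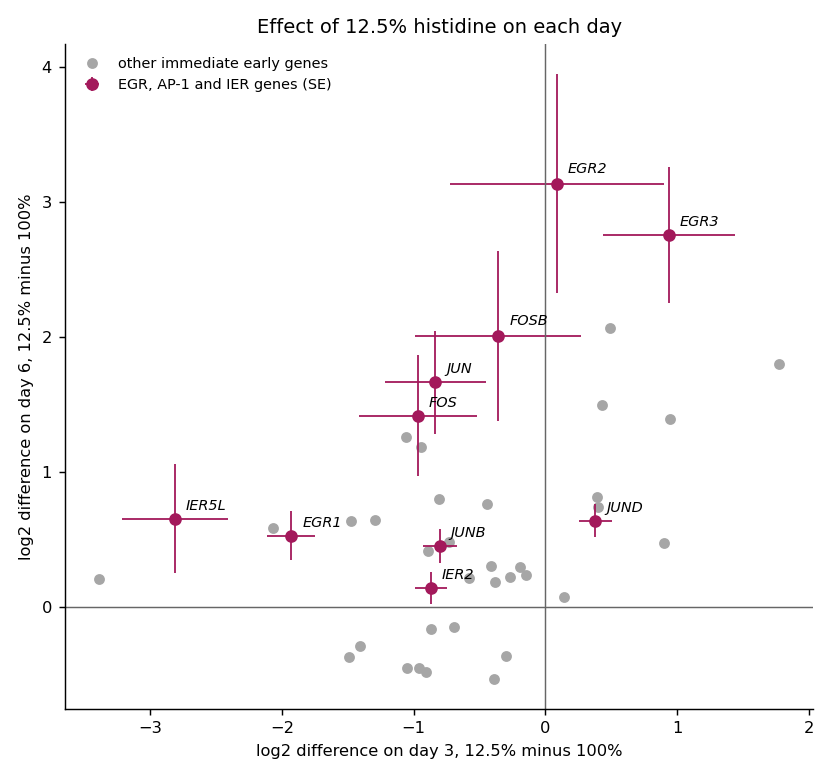
Log2 difference between 12.5% and 100% histidine on day 6 (y axis) against the same on day 3 (x axis), for the 10 genes with standard errors (magenta) and 33 other immediate early genes (grey). The days share no library; EGR1 (-1.93, 0.53) and IER5L (-2.82, 0.65) lie far left and slightly above 0, while EGR2 and EGR3 lie high and near or right of 0.

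The members did not vary as 1 unit. Across the 9 group means of log2 values, the closest pairs were EGR1 with IER2 (Pearson r = 0.96), JUNB with IER5L (0.96) and IER2 with IER5L (0.95), while EGR3 against EGR1 was -0.33 and against IER2 -0.37. Within groups, the 25 libraries' deviations from their group means gave other pairs: JUNB with FOSB (0.94), FOS with FOSB (0.94), FOS with JUNB (0.85) and EGR1 with FOSB (0.83), while IER5L against EGR1 was -0.54. These are descriptions over points that share libraries and scaling, with no test. The spread within groups ran from 0.14 on the log2 scale in JUNB to 0.94 in EGR2. In replicate 3 of 25% histidine on day 6, EGR1, EGR2, EGR3, FOS, FOSB, JUN, JUNB and IER2 were each the highest of their group, and JUND and IER5L were highest in replicate 2. EGR2 there had 176 normalized counts, against 23.9 and 30.4 in the other 2 libraries.

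**Figure D4:**
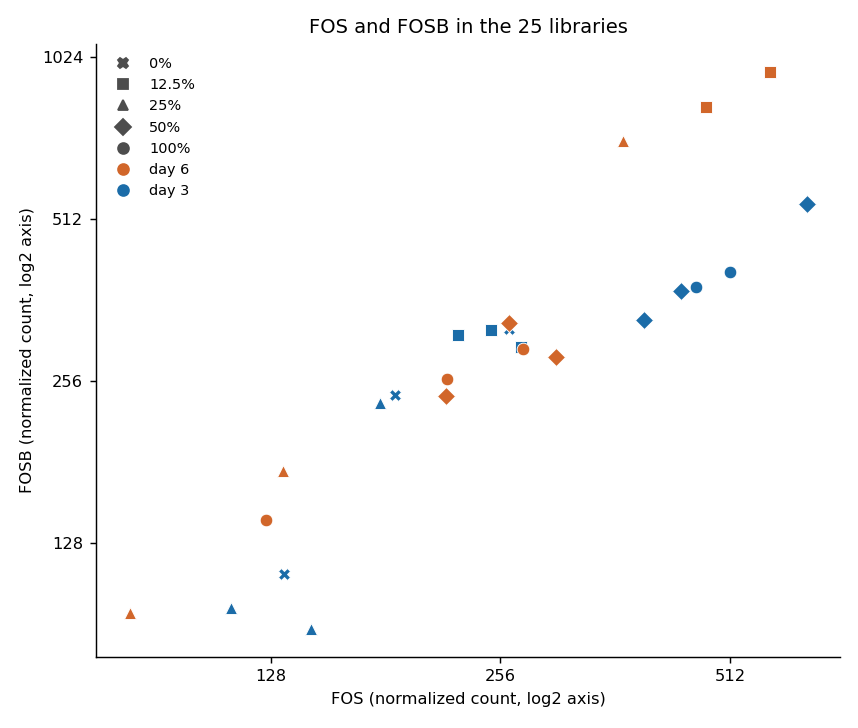
FOSB against FOS in each of the 25 libraries (normalized counts, both axes log2), coloured by day and shaped by histidine level. Replicate 3 of 25% on day 6 (FOS 370, FOSB 716) lies with the 12.5% libraries of day 6 (FOS 477 and 578, FOSB 828 and 962), and the other 2 libraries of its group lie near the bottom.

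The genes most like 4 members over the 9 group means were taken from 11626 genes with a mean of at least 50. For EGR1 they were ZFP36 (r = 0.96), TIMP1 (0.95) and AKAP5 (0.95). ZFP36, which encodes a protein that binds AU-rich messenger RNAs, averaged 569, 582, 676, 1079 and 1080 normalized counts at 0%, 12.5%, 25%, 50% and 100% on day 3. On day 6 it averaged 733, 555, 648 and 552 at 12.5%, 25%, 50% and 100%. For FOS the closest were IFT56 (0.90), TRIB1 (0.88) and BST2 (0.88), for JUN NUP62 (0.97), CCDC117 (0.96) and CLK1 (0.96), and for JUNB DIAPH1 (0.97), AUH (0.95) and MXD1 (0.95). These are the 3 highest of 11626 correlations for each member, over only 9 points. Such values can arise among unrelated genes, and no test was made. A high correlation also does not mean a change of like size. The group means of IFT56 ran from 214 to 288, and those of FOS from 145 to 527.

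Among other immediate early genes, more were called lower than higher on day 3 and more higher than lower on day 6. Of 33 tested, 17 were called lower and 4 higher at 0% against 100% on day 3, against 16.1% and 14.8% of all genes. At 12.5% these were 16 and 4, against 12% and 14.2%, and at 25% 17 and 1, against 9.72% and 9.81%. The median log2 differences at these levels were -0.66, -0.58 and -0.52. On day 6, 14 were higher and 3 lower at 12.5%, against 10.8% and 11.1% of all genes (median log2 0.30). At 25% these were 8 and 1, against 11% and 9.24% (median log2 0.18). At 100%, 18 of the 33 were lower on day 6 than on day 3 and 0 higher, against 5.73% and 2.93%. At 50% against 100%, 0 were called on either day. IER5, the paralogue of IER5L, averaged 703 normalized counts at 0% against 1659 at 100% on day 3 (log2 -1.25, SE 0.11, adjusted p = 6.62e-10). ZFP36L2, an AU-rich element binding protein, averaged 3019 against 6059 there (adjusted p = 5.30e-12), and ID3, an inhibitor of basic helix-loop-helix factors, was lower by log2 -0.72. On day 6 at 12.5%, KLF10, a zinc-finger factor induced by TGF-beta, averaged 541 against 156 at 100% (log2 1.80, SE 0.17, adjusted p = 1.02e-08), and PPP1R15A, a regulatory subunit of the eIF2 alpha phosphatase, was higher by 0.74. ID2 averaged 423 against 149 there (adjusted p = 5.07e-06). KLF10 did not change direction between the days. On day 3 it averaged 354, 731 and 633 normalized counts at 0%, 12.5% and 25%, against 213 at 100%.

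The next list held 12 tested EGR and AP-1 factors and partners of the same leucine-zipper class, among them BATF, ATF2, MAF and the small MAF proteins. At 0% on day 3, 1 was higher and 1 lower, against 14.8% and 16.1% of all genes. These were the DNA-binding partners MAFG (log2 0.32) and MAFF (-0.69). At 12.5% on day 3, 2 were higher and 1 lower, against 14.2% and 12% of all genes. At 25%, 2 were higher and 2 lower, against 9.81% and 9.72%. On day 6 at 12.5%, 4 were higher and 1 lower, against 10.8% and 11.1%, among them MAFG (0.66), FOSL2 (0.58) and MAFK (-0.42). At 25% on day 6, 1 was higher and 0 lower, against 11% and 9.24%. Of the 2 NAB corepressors, which bind EGR proteins and repress their targets, NAB1 was lower at 0% on day 3, 374 against 665 normalized counts (log2 -0.83, SE 0.13, adjusted p = 1.38e-05), and neither was called at 12.5% against 100% on either day. NAB2, chosen after its values were seen, was higher at 25% on day 6, 480 normalized counts against 349 at 100% (log2 0.45, adjusted p = 0.00981) and 311 at 50% (log2 0.62, adjusted p = 0.000585).

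Of 8 genes for SRF, its cofactors and CREB proteins, 2 were higher and 0 lower at 0% on day 3, against 14.8% and 16.1% of all genes. These were ELK4, which binds beside SRF (log2 0.50), and CREM (0.46). On day 3, 2 were higher and 1 lower at 12.5%, against 14.2% and 12% of all genes. At 25%, 0 were higher and 1 lower, against 9.81% and 9.72%. The gene lower at 25% was SRF itself, chosen after its values were seen. SRF averaged 3686 normalized counts at 25% against 5257 at 100% (log2 -0.51, SE 0.08, adjusted p = 6.05e-05), and it was also lower than at 50%, with 5125 there (log2 -0.48, adjusted p = 2.29e-05). At 25% against 50%, ELK1, a cofactor of SRF, was lower by log2 -0.22 as well, and ELK4 was higher by 0.25. On day 6 at 12.5% only ELK4 was called, higher by 0.72, against 10.8% of all genes higher and 11.1% lower. Of the 8, 1 was higher and 0 lower at 25% on day 6, against 11% and 9.24%. SRF is counted both here and among the immediate early genes. Of 22 RAS, ERK, JNK and p38 pathway genes, 7 were higher and 3 lower at 0% on day 3, against 14.8% and 16.1% of all genes, and 8 higher and 2 lower at 12.5%, against 14.2% and 12%. On day 6 at 12.5%, 5 were higher and 2 lower, against 10.8% and 11.1%. The 25% level had 4 higher and 2 lower on day 3, against 9.81% and 9.72%. It had 6 higher and 3 lower on day 6, against 11% and 9.24%. MAP2K1, which encodes the kinase MEK1, was higher on both days (0.64 at 0% on day 3, 0.56 at 12.5% on day 6). RASGRP1, which couples the T-cell receptor to RAS, was lower on both (-0.81 and -0.71), and MAP2K2 was higher at 0% on day 3 (0.59). The median log2 difference of the 22 was 0.01 at 0% on day 3, 0.08 at 12.5% on day 3 and 0.07 at 12.5% on day 6.

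FOSB and JUNB lie wholly under another gene on the opposite strand in GENCODE 29, ERCC1 and HOOK2. Whether counting used strand is not given in the sources used here, so reads of each pair may not be told apart. Where FOSB was higher, at 12.5% on day 6, ERCC1 was lower, 948 against 1302 normalized counts (log2 -0.45, SE 0.10, adjusted p = 0.00111). Where JUNB was lower at 0% on day 3, HOOK2 had a log2 difference of -0.21 (adjusted p = 0.268), and where JUNB was higher at 12.5% on day 6, -0.33 (adjusted p = 0.0813). At 25% against 50% on day 3, JUNB and HOOK2 were both lower (log2 -0.83 and -0.40).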

How the data were processed

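RNA of 25 Jurkat libraries was sequenced from strand-specific libraries, per the labels' protocols. The submitters' processing notes name the build GRCh38 and the tools FastQC 0.11.9, kallisto 0.50.1 (a pseudoaligner) and DESeq2 1.44.0. The sources used here do not give their roles, the annotation or any use of strand. The authors deposited a normalized signal, that is, counts scaled per library. Between 55.6% and 75.4% of low values (up to 20 reads) came out whole (tolerance 0.05), so no count model was run, depth is unknown and no interval for counting error is given.

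Groups came from the labels. Log2(value + 1) was fitted with limma 3.58.1 (R 4.3.3, statmod 1.5.0) as 9 group means sharing 1 spread, with an intensity trend and robust moderation (median total degrees of freedom 25.22), on genes with at least 10 in at least 2 libraries. P-values were adjusted by Benjamini-Hochberg over 22994 genes in each of 16 comparisons, and calls were made at an adjusted p under 0.05. Log2 differences understate changes of low genes, and folds are ratios of group means.

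The 10 members were all named. From each other list, the 3 called genes with the smallest p at 0% on day 3 and at 12.5% on day 6, against 100%, were named. The lists were other immediate early genes, other EGR, AP-1 and MAF factors, NAB corepressors, SRF and ternary complex factors, upstream kinases, and markers of T-lineage, fibroblast, erythroid, muscle, epithelial, myeloid and B cells. Likeness used the Pearson correlation of group means, 3 genes each for EGR1, FOS, JUN and JUNB. Members and lists were chosen with earlier results of these data known. Alternatives were pseudocounts of 0.5 and 10, no filter, total-sum and quantile scaling, library position (the library number modulo 8), other-cell markers as a covariate, a replicate block, only the compared groups, and leaving out each library. The labels give no physical position, so library position is only a grouping of library numbers. Erythroid markers vary with library number modulo 8 in these same data, in a way the labels do not explain. The position terms leave fewer residual degrees of freedom than the 16 of the main fit. Library numbers also run in order through the groups, so these terms overlap in part with histidine level and day. Differences between groups and between positions are therefore not fully told apart in that fit. The cause of calls lost with the position terms was not tested. The procedure was tested on simulated data.

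Promoter sequences are from RefSeq (GRCh38.p14) and gene coordinates from GENCODE 29 (GRCh38, counted from 1).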

Additional observations from a re-analysis of the deposited data

Results flagged for a closer look

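In 10 cases the effect of histidine restriction on a member differed between the days by limma's test of the difference itself (log2, day 6 effect minus day 3 effect). In all 10 this signed difference was positive, which does not mean a larger effect on day 6. IER2 and IER5L at both levels, and JUNB at 25%, were not called against 100% on day 6. IER2 at 12.5%, for example, had log2 0.14 on day 6 and -0.87 on day 3. At 12.5% against 100% these were IER5L (3.47), JUN (2.50), EGR1 (2.46), FOS (2.38), JUNB (1.25) and IER2 (1.01). At 25% against 100% they were IER5L (3.32), JUN (2.39), JUNB (0.99) and IER2 (0.68). The difference of FOS at 12.5% did not pass in 9 of the 10 fits that left out 1 library (adjusted p 0.0660 to 0.17) and passed without replicate 3 of 100% on day 6 (0.0375), and that of JUN at 12.5% had adjusted p = 0.051 without replicate 3 of 100% on day 3 and 0.0692 without replicate 1 of 12.5% on day 6. No group had more than 3 libraries, so single libraries were not tested as outliers.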

How the results depend on the processing

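No member's difference changed direction while called. Of 1440 member values under other settings, 1392 stayed on their side of the threshold, 34 no longer passed and 14 newly passed, and of 1030 with 1 library left out these were 948, 63 and 19. Pseudocounts of 0.5 and 10 changed no call. Same-numbered libraries were not visibly alike (correlation of their deviations -0.106 to 0.192, and 7 of 25 libraries closest to one of their own number). This cannot show whether a number stands for a shared culture or day. The replicate block changed no member call: 5 at 25%, 5 at 12.5% and 7 at 0% against 100% on day 3, and 8 at 12.5% on day 6.

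The count at 12.5% against 25% on day 3 was 2, and 1 under quantile normalization and with library position. At 0% against 12.5% it was 4, and 0 with library position. On day 6, 25% against 50% gave 2, and 1 with other-cell markers or only the compared groups, and 12.5% against 25% gave 1, and 0 with library position, other-cell markers or only the compared groups. Leaving out 1 library gave 1 to 2 at 12.5% against 25% and 1 to 4 at 0% against 12.5% on day 3, 2 to 7 at 12.5% against 100%, 2 to 6 at 25% against 100%, 1 to 4 at 25% against 50% and 0 to 3 at 12.5% against 25% on day 6, and 2 to 6 for the difference between days at 25%, which was 2 without replicate 3 of 100% on day 3. At 0% against 12.5% the lowest count was without replicate 2 of 0%. The causes were not tested, beyond the smaller number of libraries. Total-sum scaling moved the median log2 difference of all genes to 0.11 at 25% against 50% on day 3 and to 0.13 at 100% between days. Library position lowered the count over all genes at 25% against 100% on day 3 to 2350, beside 4490. It also lowered that count at 12.5% against 25% on day 3 to 238, beside 1889, and at 0% against 12.5% to 2723, beside 4818. On day 6 at 12.5% against 25% the count over all genes was 201, 32 with library position and 111 with other-cell markers. At 25% against 50% on day 6 it was 4807, and 3162 with other-cell markers. Depth is unknown, and low values of EGR2, EGR3 and IER5L limit their precision.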

Other observations

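Among the marker lists, T-lineage genes were called in both directions at 0% against 100% on day 3. Of 12, 7 were higher and 2 lower, against 14.8% and 16.1% of all genes. TRAC, the T-cell receptor alpha constant gene, was higher by log2 1.68, TRBC2 by 1.63 and CD3E by 0.89. On day 6 at 12.5%, 5 were higher and 4 lower, against 10.8% and 11.1%, among them TRAC (1.30), TRBC2 (0.84) and CD5 (-0.99). In these 2 comparisons the fibroblast list had 0 higher and 1 lower of 8 in each, THY1 (-1.32 on day 3, -1.01 on day 6), and 0 erythroid and 0 muscle markers were called, with 0 of these 7 genes higher or lower by limma. Of 4 epithelial markers KRT18 was lower on day 3 (-0.93), of 5 myeloid markers ITGAM was higher on day 6 (2.38), and of 2 B-cell markers CD79A was higher on both days (1.498 and 0.41) and CD79B lower on day 3 (-2.68). EPCAM was at 0 in most libraries, with at most 7.35 normalized counts, and MS4A1 had at most 3.01.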
